A study of Rattus norvegicus with 12 samples.

Results

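The cytosolic ribosomal protein genes were followed across 12 oligonucleotide arrays of rat pituitary cultures enriched in gonadotropes, the cells that make luteinizing hormone and follicle-stimulating hormone. Members were chosen by name alone: a probe set belonged when its only gene symbol was Rpl or Rps followed by a number with a letter a, x, y or l where one is used, by p0 to p2, or by a. This gave 50 probe sets of 44 genes, 30 of the large and 14 of the small ribosomal subunit, among 14217 genes with a single symbol. Each gene was represented by its brightest probe set, and 42 of the 44 passed the filter on low signal and were tested, among 10680 tested genes. Some ribosomal protein genes, among them Rplp1, Rpl10, Rpl32, Rps18, Rps19 and Rps4x, appeared only on probe sets that carry several symbols and were not analysed here.

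The cells came from adult female Sprague-Dawley rats that had been without ovaries for 2 weeks, and 13 to 15 pituitaries were pooled in an experiment. Pituitaries were dispersed with trypsin, and the large cells, about 6% of the total, were taken after sedimentation at unit gravity; 40 to 60% of the enriched cells stained for luteinizing hormone, against less than 7% before enrichment, so other cell types remained. All cultures, vehicle and treated alike, were kept in medium with 0.2 nM estradiol and charcoal-treated serum. On culture day 3 the cells received 10 nM gonadotropin-releasing hormone (GnRH), the hypothalamic peptide that drives gonadotropes, or vehicle, for 40 min. The 6 vehicle and 6 GnRH arrays fell into 3 enrichment sets, separate preparations named I, II and III, each with 2 vehicle and 2 GnRH arrays. Replicates 1 and 2 of each agent belonged to set I, replicates 3 and 4 to set II and replicates 5 and 6 to set III.

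Ribosomal proteins and ribosomal RNA together build the small subunit, which reads the messenger RNA, and the large subunit, which joins the amino acids. A ribosome holds a single copy of each protein, apart from the acidic stalk proteins, and their messenger RNAs are among the most abundant of most cells. In vertebrates these messenger RNAs start with a C followed by a stretch of C and T (U in the RNA), the terminal oligopyrimidine tract, through which mTOR signalling and the RNA-binding protein Larp1 control their translation. In gonadotropes GnRH is known to raise immediate early transcription factors through MAP kinase signalling and to act on translation initiation.

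RefSeq promoter sequences of assembly GRCr8 were found for 39 of the 44 genes, 37 by gene identifier and 2 by symbol. Runs were sought on the coding strand that start with C and go on with at least 4 bases, each C or T. A stretch of 5 bases of this kind, also one inside a longer run, began within 5 bases of the annotated start in 21 of 39 members (53.8%). Of 19005 promoters of protein-coding genes, called all promoters here, 3111 (16.4%) held one that began there. A run close to the start with no such stretch beginning in that range was not counted. In the window from 30 bases before to 20 bases after the start, such a run was present in 34 of 39 members (87.2%), against 52.6% of all promoters. The letters CCGGAAG, on either strand, were found in that window in 3 of 39 members, Rpl26, Rpl34 and Rpl39 (7.69%), and in 3.83% of all promoters. In the 300 bases from 250 before to 50 after the start they were found in 8 of 39 members (20.5%), against 11.2% of all promoters. In the reverse direction these letters hold CTTCC, so a match can overlap a run. TATAAA was found in the 50 bases before the start in 2 members, Rplp0 and Rps28 (5.13%), against 2.82% of all promoters. Where the annotated start lies off the real start of transcription, a run falls outside the narrower range.

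The windows of 8 members on which the array values below turn are shown in the order of the coding strand, with runs in capitals. They were chosen after the values had been seen. Rpl39, Rps15, Rps15a and Rpl14 had the smallest p between sets, Rpl11 and Rpl21 lay lower in the later sets, Rpl26 was the steadiest, and Rps23 had the largest difference between agents.
Rpl39, chrX:121195877-121195926 on the minus strand: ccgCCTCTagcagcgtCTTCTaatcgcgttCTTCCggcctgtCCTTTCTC
Rps15, chr7:10068096-10068145 on the minus strand: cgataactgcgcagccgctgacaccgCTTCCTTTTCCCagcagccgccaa
Rps15a, chr1:181860265-181860314 on the minus strand: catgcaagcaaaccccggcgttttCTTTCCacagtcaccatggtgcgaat
Rpl14, chr8:129163590-129163639 on the plus strand: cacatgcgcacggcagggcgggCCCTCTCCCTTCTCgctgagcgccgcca
Rpl11, chr5:153560783-153560832 on the minus strand: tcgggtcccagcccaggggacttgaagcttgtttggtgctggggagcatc
Rpl21, chr12:13386134-13386183 on the minus strand: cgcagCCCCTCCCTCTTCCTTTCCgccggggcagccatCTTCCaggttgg
Rpl26, chr10:54109662-54109711 on the plus strand: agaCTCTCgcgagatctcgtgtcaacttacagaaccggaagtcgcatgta
Rps23, chr2:23814487-23814536 on the plus strand: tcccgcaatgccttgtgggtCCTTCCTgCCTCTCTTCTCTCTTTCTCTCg
In Rpl39, Rps15, Rpl14 and Rps23 a stretch of 5 such bases began within 5 bases of the start. Rps15a, Rpl21 and Rpl26 held a run in the window but no such stretch beginning in that range, and Rpl11 held no run. The run of Rps15a ended at the base before the start. The longest run of the 8 was that of Rps23, 21 bases. CCGGAAG, on either strand, was present in the windows of Rpl39 and Rpl26.

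The geometric mean signal of 18 bacterial spike-in probe sets, RNA added at hybridisation, was between 2264 and 11705 on 5 arrays, all 4 of set I and vehicle 5, and between 53482 and 320024 on the other 7. Since each array had been scaled to a common mean, a high spike-in signal is high relative to the sample RNA of the same array. Vehicle 3 had a median Spearman correlation with the other arrays of 0.42 over all genes, against 0.68 to 0.76 for the rest. The gonadotrope genes Lhb (12563 to 152897) and Cga (17041 to 371592) gave signal on all arrays and Gnrhr, the GnRH receptor gene, reached 40.3 to 469. The immediate early gene Fosb was the single probe set called between agents (log2 difference 2.29 ± 0.32 SE, adjusted p = 0.0411).

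**Figure D1:**
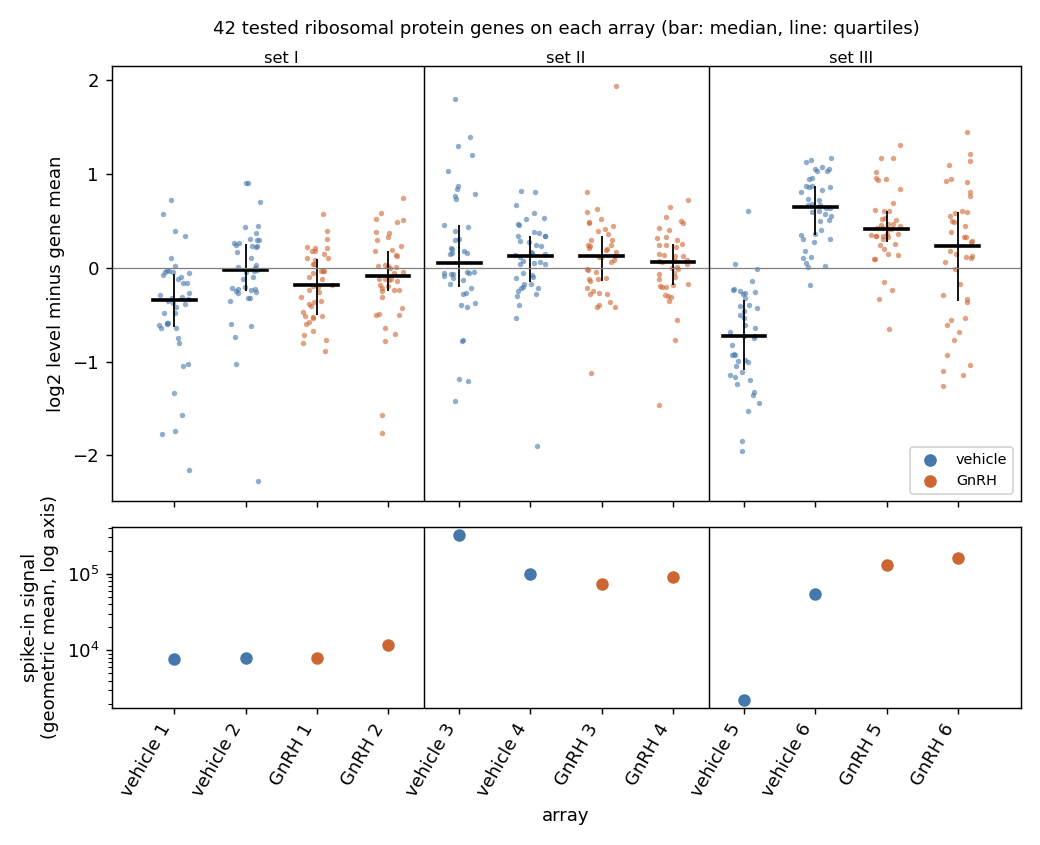
Upper panel: each of the 42 tested ribosomal protein genes on each array, as log2(signal + 16) minus the gene's own mean over the 12 arrays, with bars at the median and lines at the quartiles. Lower panel: geometric mean signal of the spike-in probe sets on a log axis; vehicle 5 had the lowest spike-in signal, 2264, and the lowest median of the members, -0.73.

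Levels are given as signal after scaling of each array to a trimmed mean of 500, and differences on the scale of log2(signal + 16). The members' median signal was 11142 on vehicle 1, 15340 on vehicle 2, 13923 on GnRH 1 and 14141 on GnRH 2 in set I. In set II it was 15324 and 14310 on vehicle 3 and vehicle 4 and 14701 and 13154 on GnRH 3 and GnRH 4. In set III it was 9299 on vehicle 5, 23652 on vehicle 6, 19603 on GnRH 5 and 15005 on GnRH 6. The lowest and the highest median therefore both came from vehicle arrays of set III, and sets I and II lay between them.

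Against each gene's own 12-array mean, the members' median deviation was -0.73 on vehicle 5 and 0.65 on vehicle 6, both of set III. It lay between -0.35 and 0.41 on the other 10 arrays. Of the 42 genes, 18 had their lowest signal on vehicle 5 and 15 their highest on vehicle 6. The median over all tested genes on vehicle 5 was 0.10, and it ran from -0.29 on vehicle 3 to 0.19 on vehicle 6. Scaling of each array to a common mean bears on this median but does not fix it. On GnRH 6 the interquartile range of the members was 0.95, the widest of the 12 arrays, and 7 members were lowest and 8 highest there.

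Within a set, the typical member varied little between arrays of the same agent in sets I and II and more in set III. The median SD of a member over the 4 arrays of a set, after removal of the agent means, was 0.25, 0.24 and 0.78 in sets I, II and III. Over all tested genes it was 0.28, 0.72 and 0.63. On vehicle 3, where 51.5% of all tested genes lay more than 2-fold from their own mean, 19.0% of the members did. On vehicle 4 these shares were 24.8% and 2.38%. The order was the reverse on vehicle 5, 11.5% and 31%, and on vehicle 6 the shares were alike, 19.1% and 19%.

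**Figure D2:**
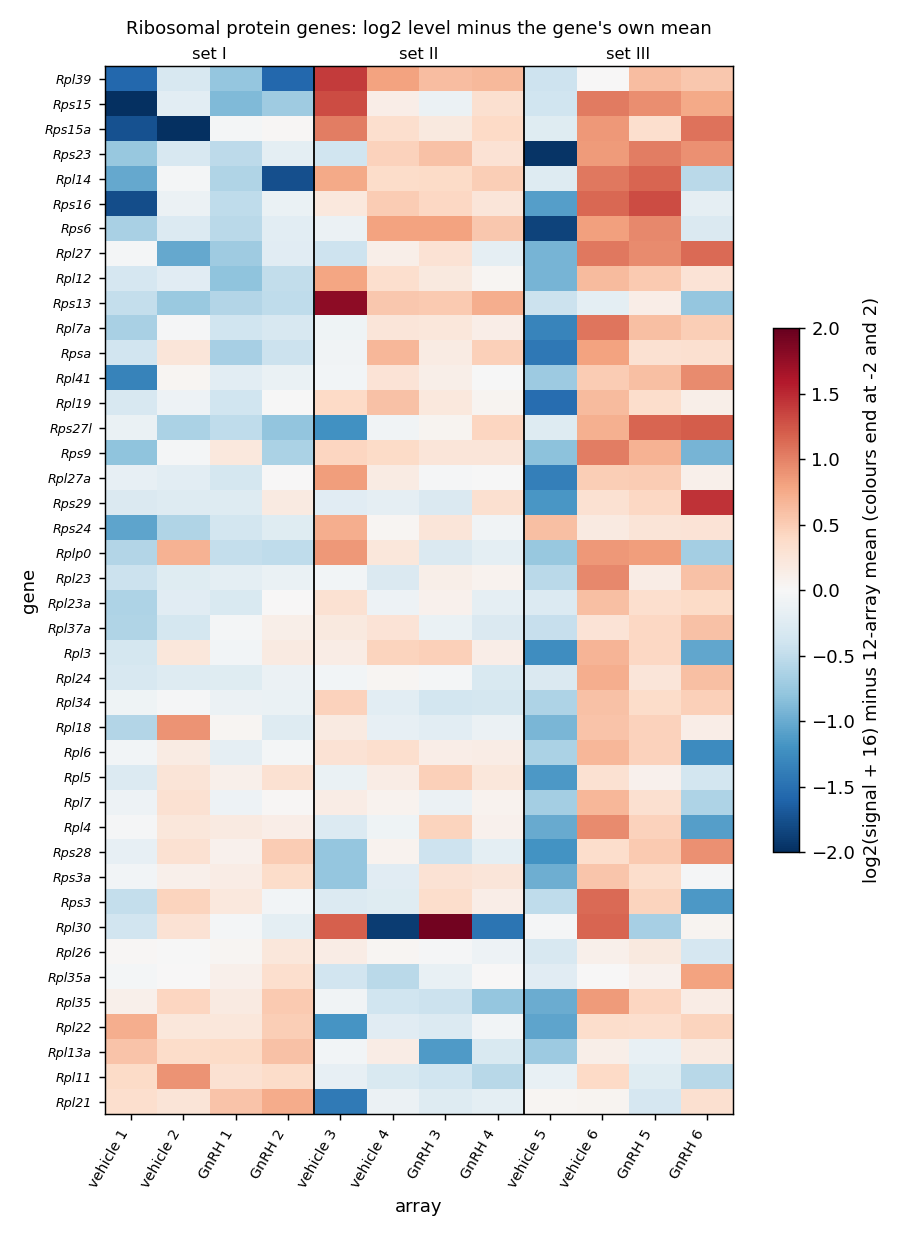
The 42 tested genes (vertical axis) on the 12 arrays (horizontal axis, ordered by enrichment set), coloured by log2(signal + 16) minus the gene's 12-array mean; colours end at -2 and 2. Genes are ordered by the mean of the 7 arrays of high minus that of the 5 of low spike-in signal. The largest differences, such as Rpl39 and Rps15, are at the top and the lowest, such as Rpl11 and Rpl21, at the bottom. The vehicle 5 column is mostly blue.

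The steadiest member was Rpl26, a large subunit protein at the exit of the peptide tunnel. Rpl26 gave 15210 and 14967 on the vehicle arrays and 15464 and 17665 on the GnRH arrays of set I, 16729 and 15477 against 14858 and 14043 in set II, and 11969 and 16112 against 17215 and 11892 in set III. All 12 values lay within 1.49-fold of each other, and the agents overlapped. Rpl35a, a large subunit protein mutated in some families with Diamond-Blackfan anaemia, and Rpl23a, a tunnel exit protein where the signal recognition particle docks, followed with SDs of 0.34 and 0.35 over the 12 arrays, against 0.18 for Rpl26. The median over the 42 members was 0.58, and 0.85 over all tested genes. The most variable tested members were Rpl30 (1.09), Rps15a (1.03) and Rps15 (0.98).

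Of the members used as reference genes in quantitative PCR, Rpl13a varied from 10511 on GnRH 3 to 34342 on GnRH 2 and Rpl19 from 12580 on vehicle 5 to 56046 on vehicle 6. These were ranges of 3.27-fold and 4.46-fold. In Rpl13a the arrays of set I were high, and in Rpl19 they were low, with vehicle 5 lower still. Rplp0, the base of the stalk that holds the acidic P proteins and a further common reference, ran from 5733 on vehicle 5 to 17700 on vehicle 3.

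Exposure to GnRH for 40 min was compared with vehicle to ask whether the messenger RNAs of the ribosome change in the early response. The test was limma's moderated test with the enrichment set as a block, adjusted over 18625 probe sets. Of the 42 members 0 passed it, against 1 probe set of all tested (0.00537%), and 0 reached an unadjusted p under 0.05, against 3.45% of all. In 30 of 42 the fitted difference was above 0 (71.4%, against 53.6% of all probe sets). The median difference was 0.07, with quartiles at -0.03 and 0.38, and it was 0.04 over all tested genes. In sets I, II and III taken singly the median was 0.08, -0.13 and 0.39.

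Without vehicle 5 the median was -0.11 and 17 of 42 differences were above 0, and under quantile normalization it was -0.08 and 14 were; without vehicle 5 and GnRH 6, a choice made after seeing the data, it was -0.01 and 20 were. With the spike-in level as a covariate the median was -0.04 and 17 of 42 were above 0, so the direction of the group as a whole depended on the scaling and on 1 vehicle array.

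**Figure D3:**
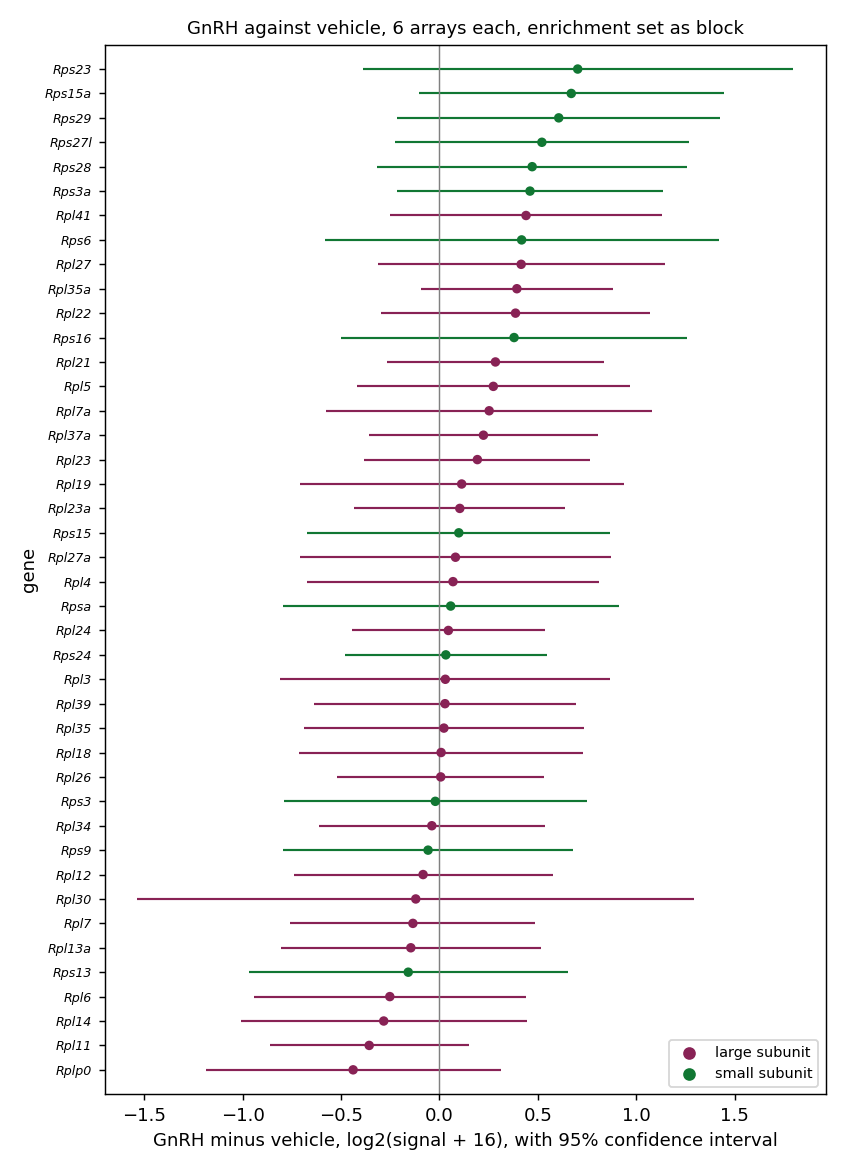
GnRH minus vehicle difference in log2(signal + 16) for each of the 42 tested genes (horizontal axis, points with 95% confidence intervals, 6 arrays each, enrichment set as block), coloured by subunit. Points run from -0.44 (Rplp0) to 0.70 (Rps23) and each interval crosses 0.

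The SE of a member's difference was between 0.23 and 0.67, with a median of 0.34. For the steadiest member, Rpl26, the difference was 0.01 with a 95% confidence interval from -0.52 to 0.53. For 20 probe sets (0.107%) the GnRH and vehicle arrays did not overlap, and 0 members were among them. In each of the 3 sets the difference was above 0 for 9 members (21.4%, against 12.6% of all probe sets): Rpl23, Rpl27, Rpl35a, Rpl5, Rps23, Rps28, Rps29, Rps3a and Rps6. In each of the 3 sets it was below 0 for 4 members (9.52%, against 11.4%): Rpl11, Rpl14, Rpl6 and Rpl7.

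In the small subunit 11 of 14 differences were above 0, with a median of 0.40, and none passed the test. Rps15a, a small subunit protein that binds the 18S ribosomal RNA, had the smallest p of all members. Rps15a gave 2894 and 1994 on the vehicle arrays and 9442 and 9844 on the GnRH arrays of set I, 19851 and 12281 against 11086 and 12862 in set II, and 8229 and 17805 against 12278 and 20734 in set III. The 2 vehicle arrays of set I were far below the other 10, and elsewhere the agents overlapped. The difference was 0.67 ± 0.37 SE (95% confidence interval -0.10 to 1.44, adjusted p = 0.981), made up of 2.0, -0.39 and 0.40 in the 3 sets in order. Without vehicle 2 it was 0.44.

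Rps23, a protein beside the decoding centre whose proline is hydroxylated by Ogfod1, had the largest difference. The Rps23 signal in set I was 48552 and 65181 with vehicle and 56924 and 71708 with GnRH; in set II it was 62150 and 113060 against 122924 and 100411, and in set III 21102 and 147970 against 166073 and 154163. Vehicle 5 was several-fold lower than the rest of its set, and in sets I and II the agents overlapped. The difference was 0.70 ± 0.52 SE (adjusted p = 0.981), and it was 0.25 without vehicle 5 and -0.24 under quantile normalization. The criterion of the series' design text was read as a ratio of the group means of at least 1.50, with at least 50% of the 36 pairs of arrays past that ratio, and was mirrored for lower values. Rps23 was the 1 member counted up, with 50% of pairs, and 0 were counted down; over all probe sets 7.62% were counted up and 7.6% down. Rplp0 also had 50% of pairs past the ratio, downward, but its ratio of means was 0.738, short of the mirrored limit.

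Rps29, a small zinc-binding protein of the small subunit, had a difference of 0.61 ± 0.39 SE. Rps29 gave 32410 and 33095 on the vehicle arrays and 33161 and 45109 on the GnRH arrays of set I, 34052 and 35076 against 32640 and 49663 in set II, and 17636 and 49002 against 52623 and 108003 in set III. GnRH 6 stood far above the other 11 arrays and vehicle 5 was the lowest. By set the difference was 0.24, 0.22 and 1.36; it was 0.33 without vehicle 5, 0.38 without GnRH 6 and 0.07 under quantile normalization. Rps3a (0.46 ± 0.32 SE, 0.28 without vehicle 5 and 0.19 under quantile normalization) was higher with GnRH in 29 of 36 pairs of arrays, and its vehicle arrays ran from 11978 to 34757 and its GnRH arrays from 23444 to 30571. The GnRH values of Rps3a thus lay inside the vehicle range.

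Rps6, the small subunit protein that S6 kinases phosphorylate after growth signals, had a difference of 0.42 ± 0.47 SE (95% confidence interval -0.58 to 1.42). Rps6 gave 35522 and 45842 on the vehicle arrays and 38149 and 47831 on the GnRH arrays of set I, 51225 and 96764 against 96666 and 80375 in set II, and 15425 and 98164 against 107696 and 45470 in set III. Its signal was low throughout set I and on vehicle 3, vehicle 5 and GnRH 6. By set the difference was 0.08, 0.32 and 0.85. Rps3, which lines the messenger RNA entry channel and also acts in DNA repair, differed by -0.02 ± 0.36 SE, and Rpsa, the laminin receptor precursor, by 0.06 ± 0.40 SE. In Rps3 the sets gave 0.10, 0.50 and -0.66, so the near-zero value was an average of opposite signs.

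In the large subunit 19 of 28 differences were above 0, with a median of 0.04. Rpl35a had the most regular order of agents. The Rpl35a signal in set I was 8057 and 8330 with vehicle and 8905 and 10456 with GnRH; in set II it was 6395 and 5711 against 7507 and 8373, and in set III 7082 and 8404 against 8850 and 14497. GnRH was higher in 32 of 36 pairs of arrays and in each set, although the groups overlapped. The difference was 0.39 ± 0.23 SE (95% confidence interval -0.09 to 0.88, adjusted p = 0.981), or 1.31-fold, with 0.24, 0.39 and 0.55 in the 3 sets and 0.22 under quantile normalization.

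Rpl41, a very short peptide that sits between the subunits, differed by 0.44 ± 0.33 SE. Rpl41 gave 7181 and 18476 on the vehicle arrays and 15607 and 16554 on the GnRH arrays of set I, 17326 and 21777 against 19556 and 17959 in set II, and 10895 and 25616 against 27563 and 34870 in set III. Vehicle 1 was the lowest and GnRH 6 the highest array, and in set II the difference was -0.05. Without vehicle 5 the difference over all sets was 0.23, without vehicle 1 it was 0.26, and under quantile normalization 0.23. Rpl3, whose protein reaches toward the peptidyl transferase centre, differed by 0.03 ± 0.40 SE, and its GnRH arrays spanned 18328 to 52655. The low end of that range was GnRH 6.

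Rpl5 and Rpl11 form, with the 5S ribosomal RNA, a particle that joins the large subunit and that binds Mdm2 when ribosome assembly is disturbed. For Rpl5 the difference was 0.27 ± 0.33 SE. Rpl11 gave 14129 and 20099 on the vehicle arrays and 13345 and 13976 on the GnRH arrays of set I, 9566 and 8727 against 8173 and 7342 in set II, and 9740 and 14272 against 9106 and 7306 in set III. In Rpl11 the arrays of set I and vehicle 6 were high and the agents overlapped. The difference was -0.36 ± 0.24 SE (95% confidence interval -0.86 to 0.15, adjusted p = 0.981), with -0.30, -0.24 and -0.53 in the 3 sets and -0.57 under quantile normalization. The 2 partners of the particle thus had fitted differences of opposite sign, and the difference between them was not tested.

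Rplp0 had the lowest difference of the members, -0.44 ± 0.35 SE. The Rplp0 signal in set I was 6413 and 15713 with vehicle and 6960 and 6797 with GnRH; in set II it was 17700 and 11320 against 7950 and 8413, and in set III 5733 and 17677 against 17282 and 6018. Vehicle 2, 3, 4 and 6 and GnRH 5 were high, and the rest lay between 5733 and 8413. Its differences were -0.54, -0.79 and 0.02 by set.

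Paralogs and low members were few. Rps27l, a paralog of Rps27 and a p53 target, differed by 0.52 ± 0.35 SE. Rps27l gave 534 and 373 on the vehicle arrays and 405 and 333 on the GnRH arrays of set I, 244 and 559 against 609 and 791 in set II, and 488 and 970 against 1334 and 1369 in set III. The highest signals were those of set III apart from vehicle 5, and the sets gave -0.27, 0.88 and 0.96. Without vehicle 3 the difference was 0.33 and without vehicle 5 it was 0.34. Rpl3l, the paralog of Rpl3 of heart and skeletal muscle, was 231 on vehicle 3 and between 8.93 and 79.9 on the other arrays, and was not tested. The median of 27 bacterial control probe sets taken as background was 250 on vehicle 3. Rpl3l and the Rps27l signal of 244 on that array thus lay below the background median. The filter lay at a mean log2 value of 7.35: Rpl28 (6.62) and Rpl3l (5.60) fell below it, and Rpl30 (7.39) and Rps13 (8.56) were the lowest members above it. Rpl30 ran from 28.8 on vehicle 4 to 622 on GnRH 3, both in set II, and its values had no common order with agent or set. The background median was 80.7 on vehicle 4 and 78.3 on GnRH 3.

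The 3 preparations were compared in the same model. In the moderated F test 1 of 42 members was called (2.38%), against 1122 of 18625 probe sets (6.02%). That member was Rpl39, a small basic protein that lines the peptide exit tunnel. Rpl39 gave 348 and 845 on the vehicle arrays and 617 and 346 on the GnRH arrays of set I, 2817 and 1876 against 1643 and 1669 in set II, and 797 and 1066 against 1631 and 1557 in set III. All 4 arrays of set II lay above all 4 of set I, as did 3 of the 4 of set III. Rpl39 was 1.93 higher in set II than in set I, or 3.80-fold, and 1.25 higher in set III, or 2.37-fold (adjusted p = 0.0225, limma's moderated F test).

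The call of Rpl39 was lost without vehicle 1 (adjusted p = 0.105), without GnRH 1 (0.0702), without GnRH 2 (0.102) and without the intensity trend (0.0592). All of set I had low spike-in signal and all of set II high. With the spike-in level as a covariate the difference of set II from set I was 1.23 (adjusted p = 0.495, moderated F test). The ratio of the 3' to the 5' probe set of Gapdh was 22.3 to 43.7 on set I and 7.76 to 20.7 on set II. For Actb it was 17.8 to 28.3 and 5.46 to 17.9. For these 2 sets preparation, spike-in level and the Gapdh ratio cannot be told apart, and the part of the ratios in the differences between sets was not tested.

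Without vehicle 5, 6 of 42 members and 2333 of 18625 probe sets were called between sets. The members were Rpl12, Rpl14, Rpl27, Rpl39, Rps15 and Rps15a. Without both vehicle 5 and GnRH 6 the counts were 6 of 42 and 2698 of 18625, with Rpl12, Rpl14, Rpl27, Rpl39, Rps15 and Rps16. The count thus rose over all probe sets as well as over the members, and whether the shares differ was not tested.

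**Figure D4:**
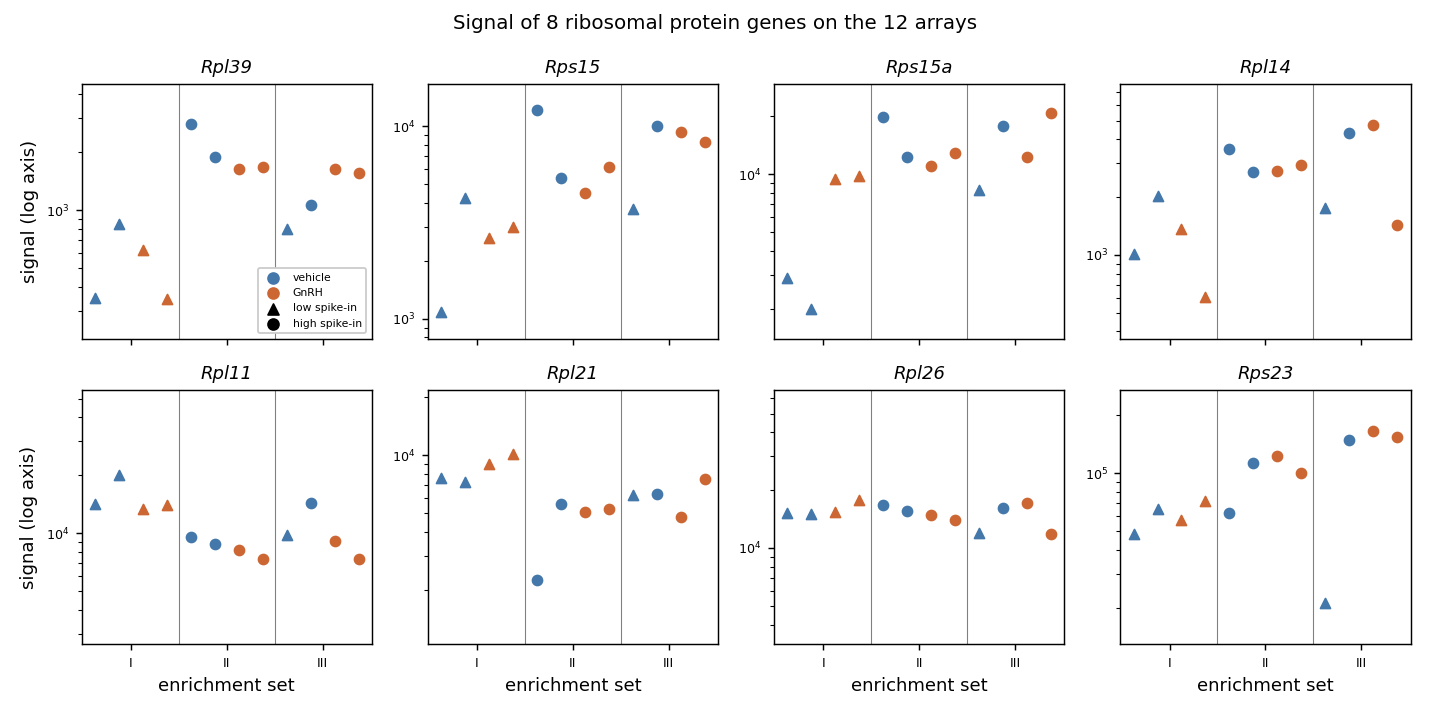
Signal of 8 members on each array (vertical log axes, each spanning the same ratio), grouped by enrichment set, with colour for the agent and triangles for the 5 arrays of low spike-in signal. Rpl39, Rps15, Rps15a and Rpl14 lie lower on set I than on most other arrays, Rpl11 and Rpl21 lie higher there, Rpl26 is flat, and vehicle 5 is the lowest array of Rps23.

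Rps15, a small subunit protein needed for export of the small subunit precursor from the nucleus, was next in order with Rps15a. The Rps15 signal in set I was 1087 and 4260 with vehicle and 2643 and 3005 with GnRH; in set II it was 12096 and 5391 against 4511 and 6128, and in set III 3731 and 10066 against 9390 and 8338. Vehicle 1 was the lowest array and vehicle 3 the highest. Rps15 was 1.40 higher in set II and 1.57 higher in set III than in set I (adjusted p = 0.0606, moderated F test), and Rps15a 1.50 and 1.53 (adjusted p = 0.0587). Neither passed the threshold; both passed it without vehicle 5 (adjusted p = 0.0187 and 0.0364) and without vehicle 3 (0.0381 and 0.0425).

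Rpl14 ran in the same direction. Rpl14 gave 1017 and 2021 on the vehicle arrays and 1366 and 606 on the GnRH arrays of set I, 3553 and 2696 against 2739 and 2941 in set II, and 1747 and 4330 against 4721 and 1433 in set III. GnRH 2 was the lowest and GnRH 5 the highest array, and vehicle 5 and GnRH 6 lay among the set I values. The differences from set I were 1.36 and 1.22 (adjusted p = 0.0796, moderated F test), and without vehicle 5 the adjusted p was 0.0368. Rps13, which binds the 18S ribosomal RNA, was 1.47 higher in set II but 0.26 higher in set III (adjusted p = 0.0966), and Rps24, which is needed for processing of the 18S precursor, was 0.80 and 0.89 higher (adjusted p = 0.0999).

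Rpl21 and Rpl11 ran the other way. Rpl21 gave 7620 and 7230 on the vehicle arrays and 9002 and 10140 on the GnRH arrays of set I, 2250 and 5579 against 5070 and 5250 in set II, and 6199 and 6255 against 4783 and 7564 in set III. The arrays of set I and GnRH 6 were high and vehicle 3 was far lower than any other. Rpl21 differed from set I by -0.97 in set II and -0.46 in set III (adjusted p = 0.125, moderated F test) and Rpl11 by -0.85 and -0.63 (adjusted p = 0.131). Over the 42 members the median difference from set I was 0.28 in set II and 0.29 in set III, against -0.12 and 0.02 over all tested genes. In the small subunit these medians were 0.66 and 0.37 and in the large subunit 0.18 and 0.11.

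Whether the difference between agents varied with the preparation was asked with an interaction term. Of the 42 members 0 passed the moderated F test after adjustment, and 0% of all probe sets did. Rps15a alone had an unadjusted interaction p under 0.05 (0.0157, adjusted p = 0.857), or 2.38% of the members against 5.36% of all. Its vehicle signals of 2894 and 1994 in set I, given above, were both several-fold lower than the GnRH signals of that set. Next came Rpl39 (unadjusted p = 0.233, moderated F test) and Rpl37a (0.242), whose differences by set were 0.52, -0.45 and 0.60.

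In set III, 2 arrays stood apart from the other 2, and were singled out after their values had been seen. Vehicle 5 was below the mean of its set's other 3 arrays for 40 of 42 members, with a median of -1.10. For 26 members (61.9%) it was more than 2-fold lower, against 10.6% of all tested genes. Rps23 was -2.88, Rps6 -2.34, the large subunit gene Rpl7a -2.05 and Rpl27 -1.98. Rps24 and Rpl21 were the 2 members not below 0.

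The lower level on vehicle 5 moved with brightness. Over the 42 members the Spearman correlation of this difference with the mean log2 signal was -0.68, a description across genes that share the same arrays. For the 33 members with a mean log2 signal of at least 13 the median was -1.26, and 24 were more than 2-fold lower. For 138 other genes of that brightness the median was -0.87, with 127 below 0 and 58 more than 2-fold lower. Vehicle 5 also had the lowest spike-in signal, 2264; the part of signal strength in the result was not tested.

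**Figure D5:**
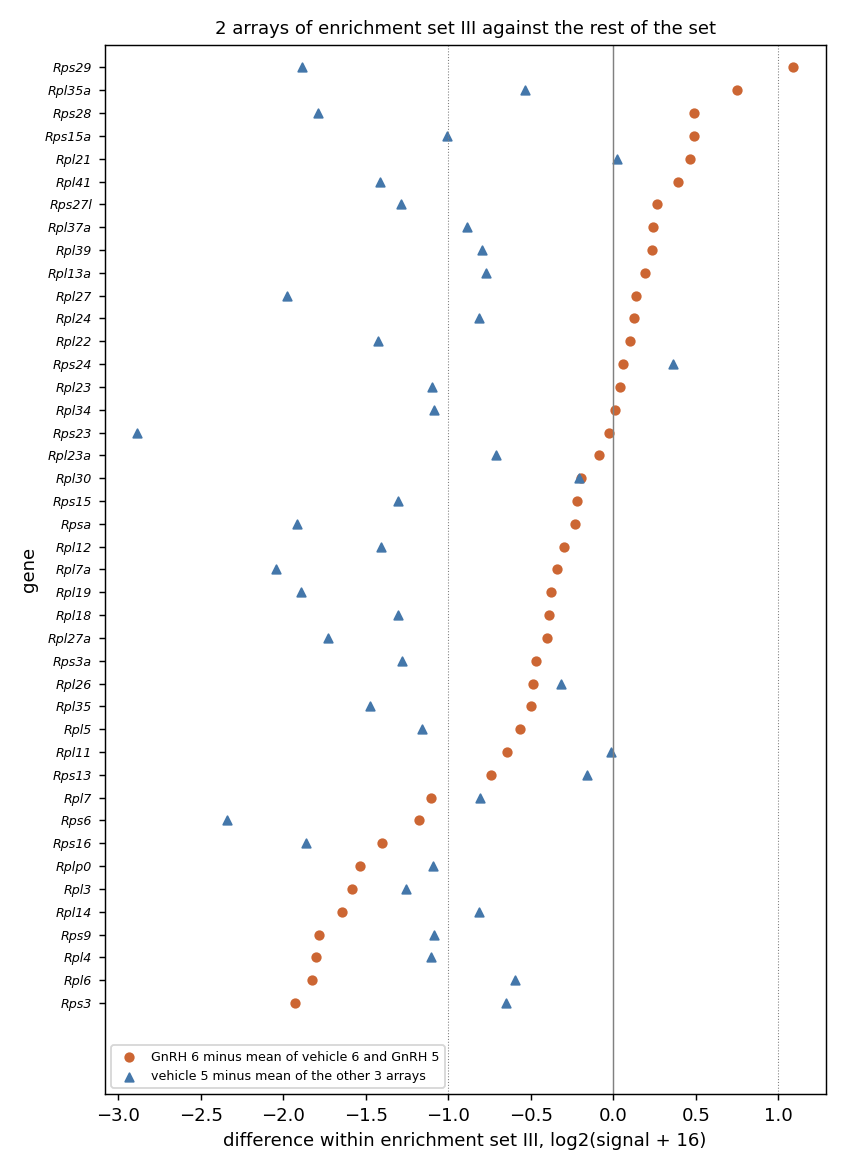
For each of the 42 tested genes (vertical axis), circles give GnRH 6 minus the mean of vehicle 6 and GnRH 5, and triangles give vehicle 5 minus the mean of the other 3 arrays of set III, both in log2(signal + 16). Dotted lines mark a 2-fold difference; 26 triangles and 10 circles lie beyond the left one, and 1 circle, Rps29, beyond the right one.

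GnRH 6 differed from its set in some members only. Against the mean of vehicle 6 and GnRH 5, 10 of 42 members (23.8%, against 16.4% of all tested genes) were more than 2-fold lower: Rps3, Rpl6, Rpl4, Rps9, Rpl14, Rpl3, Rplp0, Rps16, Rps6 and Rpl7. Rps3 was lowest at -1.93, with signals of 32503 on vehicle 6, 20215 on GnRH 5 and 6717 on GnRH 6. Rps29 was the 1 member more than 2-fold higher, at 1.09. The ratio of the 3' to the 5' probe set of Actb on GnRH 6 was 29.9, the highest of the 12 arrays, which ran from 5.46. GnRH 2 was close to it at 28.3. The ratio for Gapdh on GnRH 6 was 12.1, near the low end of its range of 7.76 to 43.7. The part of these ratios in the result was not tested.

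Across sets, the members tended to be higher on the arrays of high spike-in signal. The 7 arrays of high spike-in signal lay wholly above the 5 of low signal for 5 members (11.9%, against 3.54% of all probe sets): Rpl12, Rpl19, Rpl39, Rps15 and Rps15a. They lay wholly below for none (0 of 42, against 6.75%). The median difference of high minus low arrays was 0.51 over the members and -0.05 over all tested genes, and was 0.85 in the small subunit and 0.37 in the large. For the 33 members with a mean log2 signal of at least 13 it was 0.46, against 0.15 for the 138 other genes of that brightness. Vehicle 5, with its low values for most members, is among the low arrays and enters this difference. Cga and Lhb were 2.76 and 2.31 higher on the same arrays and Gnrhr -1.73, and fewer cells of a type and less RNA per cell cannot be told apart in these cultures.

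The members varied together in part. Over the 861 pairs of members the median Pearson correlation across the 12 arrays was 0.40, and 17.5% of pairs were negative; over 2628 pairs of mitochondrial ribosomal protein genes it was 0.11 and 40.4% were negative. All pairs share the 12 arrays and their scaling, so these are descriptions. The mitochondrial genes were mostly dimmer than the members, and pairs of other genes matched for brightness were not compared. Whether the higher correlation is particular to the members was not tested. Rpl7a was the member closest to the mean of the others (0.97), followed by Rps16 (0.89), Rps23 (0.89) and Rpl19 (0.89). Rpl21 (-0.34), Rpl11 (-0.17) and Rpl13a (-0.03) had negative values, and these 3 were all higher in set I.

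Of the 5 genes with more than 1 probe set, probe sets did not all run together. Rpsa was 43964 on GnRH 6 by its leading probe set and 5408 by a second, against 43303 and 13565 on GnRH 5. For Rps24 the leading probe set differed by 0.03 between agents and the second by -1.27 ± 0.58 SE (unadjusted p = 0.042, adjusted p = 0.981, limma). The second probe set gave 34.1 on GnRH 3 and 33.5 on GnRH 6, below the background medians of those arrays, 78.3 and 38.0. For Rpl14 the signs were opposite as well, -0.28 against 0.64 ± 0.67 SE. They were also opposite for Rpsa, 0.06 on the leading probe set against -0.25 and -0.36, and for Rpl3, 0.03 against -0.19. For Rpl7 the sign was the same, -0.14 and -0.28. Ribosomal protein genes have many processed copies in mammalian genomes, and which copies a probe set detects was not tested.

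Related genes were read from the same fit, and none of 4 lists had a member called for GnRH. The median difference was 0.20 over 14 elongation factors and other genes with oligopyrimidine starts, 0.09 over 46 ribosome biogenesis factors, -0.11 over 19 S6 kinase and mTOR pathway genes, and 0.10 over 73 mitochondrial ribosomal protein genes. The lowest p values belonged to Lsg1, a GTPase that frees the export factor Nmd3 from the large subunit (1.10 ± 0.43 SE, adjusted p = 0.981), and Rps6ka3, an RSK kinase activated by MAP kinases (1.30 ± 0.53 SE, adjusted p = 0.981). Of the components outside the naming rule 1 of 4 was tested, the scaffold Rack1, with a difference of 0.32 ± 0.34 SE.

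For the enrichment sets, 3 of 46 biogenesis factors were called (6.52%, against 6.87% of all tested genes), all lower in set II than in set I: Nop58, a core protein of box C/D particles (-1.92), Riok1, a kinase of late small subunit maturation (-1.84), and Gnl3l (-2.59). Of the mTOR pathway list 2 of 19 were called (10.5%), Pdpk1 (-2.82) and Larp1 (-1.66). Of the elongation list 2 of 14 were called (14.3%), Nap1l1 (-1.78) and Eef1b2 (-1.23), while Eef1a1 was 1.39 higher and not called (adjusted p = 0.319, moderated F test). Of the mitochondrial list 7 of 73 were called (9.59%). Mrpl52 (1.48) and Mrpl10 were higher in set II, and Mrpl43 (-1.66), Mrpl13, Mrpl51, Mrpl41 and Mrpl18 were lower. Whether these shares differ from that of all genes was not tested.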

How the data were processed

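RNA of 12 samples was amplified with T7 RNA polymerase in a pair of rounds and hybridised to 12 Affymetrix rat 230 2.0 arrays. The authors deposited 1 linear intensity signal per probe set and array, computed with GCOS, per the submitters' processing notes; its version is not given in the sources used here. Scanner files were not used here. The table held 31099 probe sets, 57 of them controls; in the platform annotation 20826 carried a single gene symbol and 436 several, and no gene was named from the latter.

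Signals were scaled so that every array had a trimmed mean of 500 (2% trimmed at each end), 16 was added and log2 taken. Folds therefore refer to signal plus 16 and are too small for dim genes. The test took probe sets from the 40th percentile of mean log2 value upward. Models were fitted with limma 3.58.1 under R 4.3.3 on all 12 arrays, with enrichment set and agent as terms and an intensity trend. Benjamini-Hochberg adjustment ran over all 18625 tested probe sets, with a threshold of 0.05; moderated F tests served for the enrichment sets and the interaction. The model was tested on simulated data first. The number of arrays limits the precision. The sample titles call the replicates of each agent biological. Nothing states that samples of a preparation came from separate cultures, so p-values measure the spread between these samples, which may be technical. No 2 arrays had identical values; the highest correlation was 0.951. Correlations of same-numbered deviations were -0.03, -0.03 and -0.14, which gave no sign that replicate numbers pair the samples. With 2 arrays of each agent per set they cannot exclude a pairing.

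The members and lists were chosen with earlier results of these data known. Genes named are members past a threshold or among the 8 smallest p-values of each test, the 3 least and 3 most variable, a written list of well-studied members and reference genes, paralogs, members at the filter, those that a count singled out, and the genes of other lists with the smallest p. Alternatives covered the pseudocount, filter, scaling, variance trend, block, array weights, spike-in level, single sets, arrays left out in turn and the choice of probe set.

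Cell type markers were summed per array. Gonadotrope markers ranged over 40936 to 478673 with vehicle and 87006 to 509719 with GnRH, somatotrope and lactotrope markers over 36261 to 1169600 and 88147 to 658111, corticotrope and melanotrope markers over 943 to 2884 and 1262 to 2367, thyrotrope markers over 4003 to 24234 and 9134 to 24826, and folliculostellate and stem cell markers over 5335 to 11745 and 7891 to 12995. Endothelial markers ranged over 881 to 2192 and 476 to 1920, fibroblast and pericyte markers over 1646 to 6015 and 1866 to 3360, and leukocyte markers over 642 to 2407 and 573 to 1759. No erythrocyte marker passed the filter. In each case the agents overlapped.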

Additional observations from a re-analysis of the deposited data

Results flagged for a closer look

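In the 27 tested members that the rule for named genes takes, the highest and lowest array of each agent's 6 were set against the others by Dixon's ratio of gap to range, 54 groups in all; members named for other counts were not screened, and chance marks about 1 in 20. In 5 groups 1 array stood apart. Rpl21 was 2250 on vehicle 3 and 5579 to 7620 on the other vehicle arrays (ratio 0.744). Rpl26 was 11969 on vehicle 5 against 14967 to 16729 (0.668). Rpl3 was 18328 on GnRH 6 against 36264 to 52655 (0.647), and Rps3 was 6717 on GnRH 6 against 14305 to 20215 (0.686). Rplp0 was 17283 on GnRH 5 against 6018 to 8413 (0.683). The cause of these gaps was not tested.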

How the results depend on the processing

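Of the 42 members 0 were called for GnRH under each alternative in which the adjusted test was run, and 1, Rps23, by the criterion of the series' design text. That criterion counted 2834 probe sets. The adjusted test called 2 probe sets with array weights and 0 with a pseudocount of 1, a filter at the 60th percentile, quantile normalization, no intensity trend, no block, the replicate block, each set alone, the 5 arrays of low spike-in signal, and without vehicle 5 and GnRH 6; with 1 array left out the count was 0 to 1. With the replicate number as a block the members' median was 0.07. No paired reading is made, since nothing states that the numbers pair the samples. The members' median was 0.39 in set III alone and -0.11 to 0.27 with 1 array left out. Between sets, 1122 probe sets became 4529 with array weights, 2698 without vehicle 5 and GnRH 6, 624 under quantile normalization, 503 without the trend, 26 with the spike-in level, and 128 to 2333 with 1 array left out. The 1 of 42 members called became 8 with array weights, 6 without vehicle 5 and GnRH 6, and 3 under quantile normalization or a pseudocount of 64. The count was 2 without a filter (1530 of 31042 probe sets), 0 without the trend or with the spike-in level, and 0 to 6 with 1 array left out. The other counts of probe sets are out of 18625, and whether the members' shares differ from those was not tested. The interaction called 816 probe sets without vehicle 4 and 0 without any other array. Of the 42 members, 26 kept the sign of the GnRH difference under quantile normalization, 29 with the spike-in level and 29 without vehicle 5. Among the 8 with the smallest p, signs turned for Rpl41 (-0.052) and Rps15a (-0.39) in set II alone, Rps23 under quantile normalization (-0.24), and Rps27l with array weights (-0.020), in set I alone (-0.27) and on the arrays of low spike-in signal (-0.31). The cause was not tested.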
